A study of Mus musculus with 46 samples.

Results

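Cell junctions seal the alveolar and vascular linings of the lung. The genes described here encode 9 junction proteins of this barrier: Cldn3, Cldn5, Cldn7, Cldn18, Ocln, Tjp1, Cdh1, Cdh5 and Gja1. They were chosen by name, and every probe set that the array annotation gives to exactly 1 of these symbols was taken. This gave 16 probe sets for the 9 genes, of 36701 probe sets and 15964 named genes in the series. A probe set was tested when its intensity lay above the 40th percentile of its array type on at least 2 arrays. Of the 16, 15 were tested and at least 1 per gene. The exception was the second Tjp1 probe set, 162298_r_at, at 2.49 to 31.4 intensity units on all 14 arrays.

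RNA of whole mouse lung was measured on oligonucleotide arrays of 3 types, called A, B and C. Mice mutated in Nrf2 breathed 100% oxygen for 24, 48 or 72 h or none (0 h), and so did wild type mice. Nrf2 is a transcription factor that activates antioxidant genes, and high oxygen injures the alveolar lining and its capillaries. Each of the 8 groups has replicates 1a and 1b. Whether these are separate animals is not said, so p-values measure only the spread between these samples. The 46 arrays comprised 16 of type B, 16 of type C and 14 of type A, where mutant 0 h and wild type 24 h had replicate 1b alone. For strain, age and the kind of mutation, the labels used here say nothing. In whole lung, fewer cells of a type and less RNA per cell cannot be told apart.

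Tight junctions close the gap between neighbouring cells with strands of claudins and occludin, which the scaffold protein ZO-1 ties to the actin cytoskeleton. Adherens junctions hold cells together through cadherins, E-cadherin in epithelium and VE-cadherin in endothelium, and the catenins inside the cell. Gap junctions are channels of connexins through which neighbouring cells share ions and small molecules.

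Intensities below are the deposited linear values. Differences are on a log2 scale, given ± SE from the limma fit across all 26821 tested probe sets, and a probe set passed the test at an adjusted p under 0.05. Nfe2l2, the gene for Nrf2, read 302.5 to 448.4 units on 7 type A arrays of the mutant, against 2428 to 4488 on 7 of wild type. The mutant 0 h arrays stood apart: their 3' to 5' ratio for Gapdh, a measure of RNA integrity, was 1.67 to 2.26, against 0.858 to 1.54 on all other arrays. They correlated with the remaining arrays at a mean r of 0.827 to 0.858, against 0.879 to 0.94 for arrays of the other groups. On type A, 6 markers of squamous epithelium summed to 21265 on the mutant 0 h array and to 1624 to 2880 on all other arrays. Called mutant differences from 0 h are therefore also given against wild type at 0 h. The lung markers Sftpc of alveolar type 2 cells, Scgb1a1 of club cells and Ager of alveolar type 1 cells never fell below 9365, 14180 and 12500 units, while the endothelial marker Pecam1 was dim, at 89 to 526.6 units around the filter value of 196.

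Oxygen changed a minority of the junction probe sets, most of them upward. In mutant lungs, 4 of 15 passed the test at 24 h against 0 h, all higher, where 24.4% of all tested probe sets passed. At 48 h in the mutant, 4 were higher and 0 lower (17.9% of all). At 72 h in the mutant, 5 were higher and 1 lower (21.6% of all). In wild type lungs, 0 of 15 passed in limma at 24 h (1.72% of all, and 2 of the 15 at an unadjusted p under 0.05), 3 were higher at 48 h (6.68% of all), and 2 were higher and 1 lower at 72 h (7.86% of all). The share of the 15 lay near the overall share at 24 h in the mutant and at 0 at 24 h in wild type. At 48 h and 72 h it is not set against the overall share, because the counts then include a probe set that passed the filter through its oxygen arrays. The median difference of the 15 was 0.29, 0.37 and 0.31 at 24, 48 and 72 h in the mutant and 0.21, 0.15 and 0.35 in wild type, where the median of all probe sets lay between -0.06 and -0.02. These counts include Cldn3 162315_f_at, called at 48 h and 72 h in both genotypes, which was tested only through its oxygen arrays and so gives them no support.

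**Figure D1:**
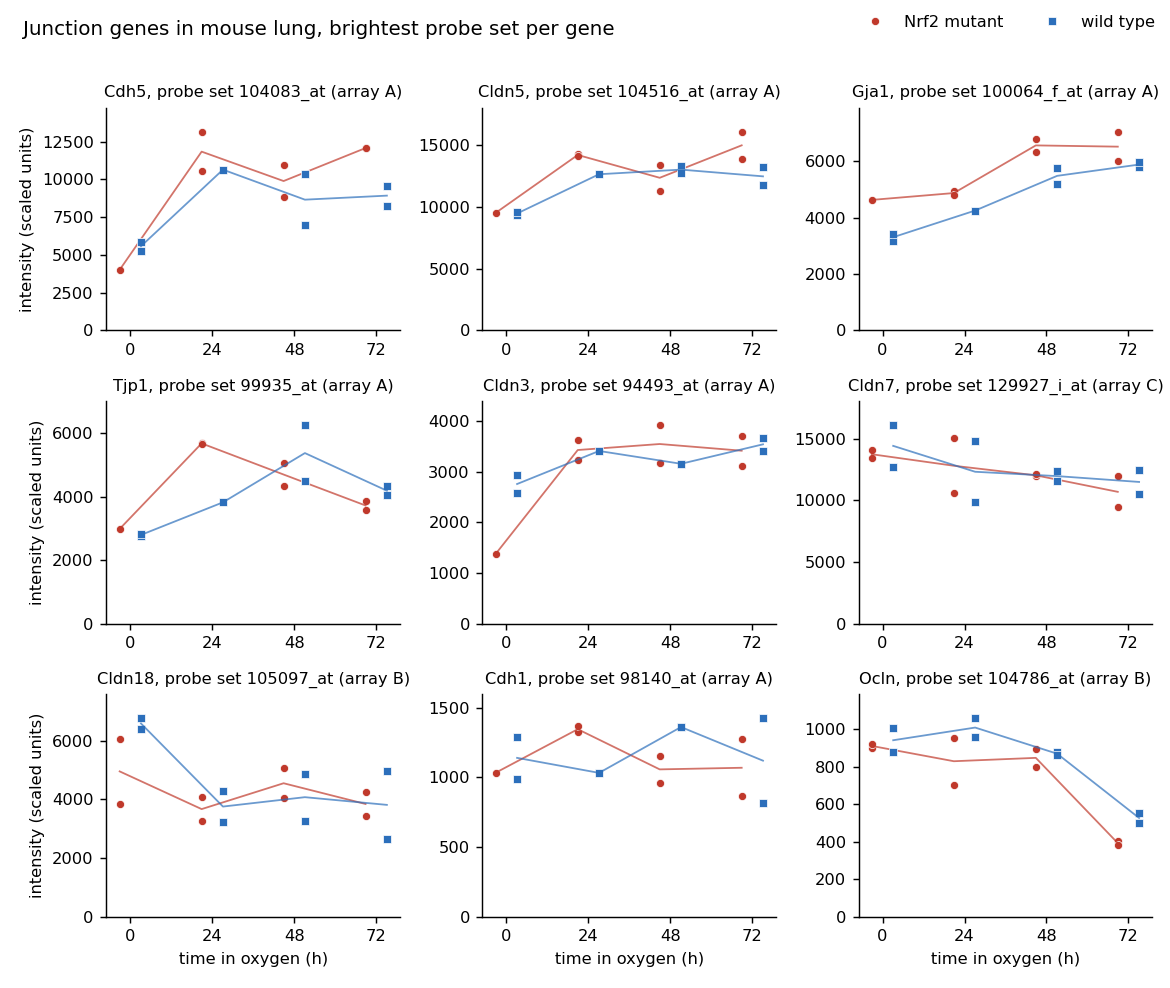
Deposited intensity (linear, from 0) against time in oxygen for the brightest probe set of each of the 9 genes; points are single arrays, lines join group means, red circles are Nrf2 mutant and blue squares wild type. Cdh5 and Gja1 lie higher on the oxygen arrays than at 0 h, while the Ocln probe set drops at 72 h, to 383 to 402 units in the mutant and 502 to 551 units in wild type.

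**Figure D2:**
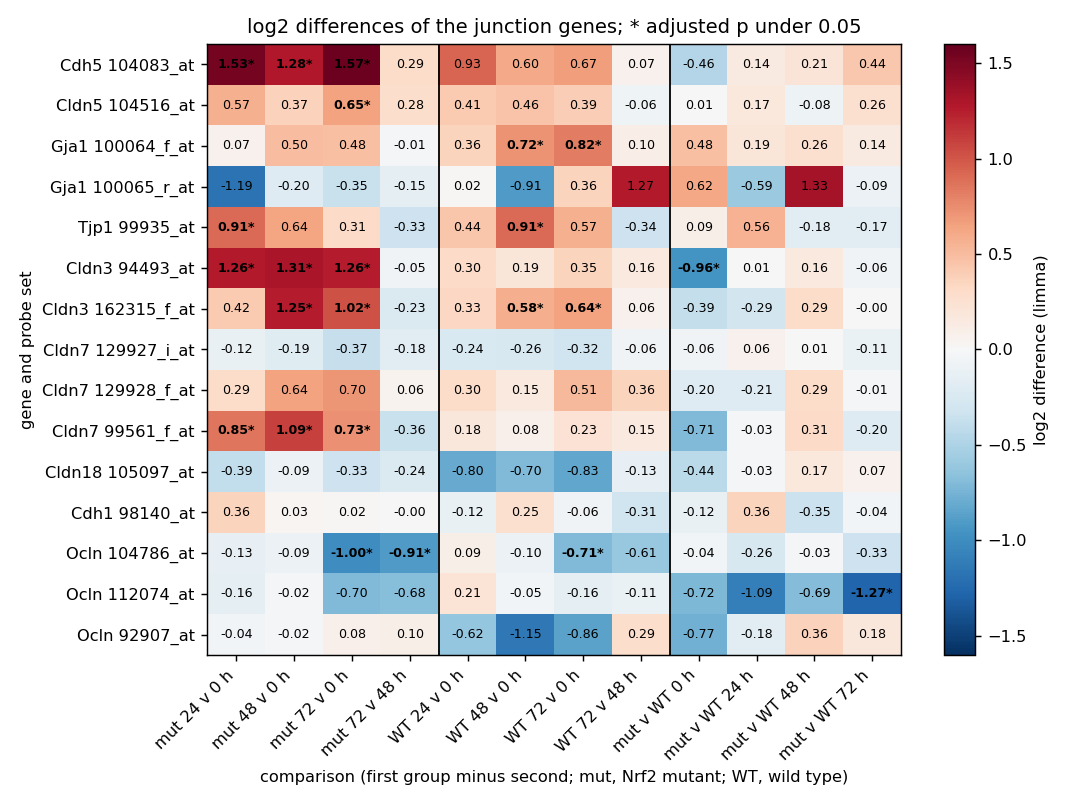
log2 difference (limma) of each tested probe set in 12 comparisons, first group minus second; bold values with an asterisk have an adjusted p under 0.05. Mutant lungs hold the largest marked rises, 1.53 for Cdh5 at 24 h and 1.57 at 72 h, and their 0 h arrays stood apart from the rest.

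Cdh5 encodes VE-cadherin, the cadherin of endothelial adherens junctions, and had the largest rise of the 9 genes. Probe set 104083_at (chromosome 8, 104101613 to 104144504 on GRCm38) read 4012 units in the mutant at 0 h, 10529 and 13145 at 24 h, 10941 and 8839 at 48 h, and 12090 and 12061 at 72 h. In wild type it read 5872 and 5274 units at 0 h, 10645 at 24 h, 6977 and 10336 at 48 h, and 9590 and 8258 at 72 h. Every oxygen array of either genotype was brighter than every 0 h array. In the mutant the rise was 1.53 ± 0.26 at 24 h (adjusted p = 0.00237), 1.28 ± 0.26 at 48 h (adjusted p = 0.0085) and 1.57 ± 0.26 at 72 h (adjusted p = 0.00208). Set against wild type at 0 h, the mutant was higher by 1.07 ± 0.22 at 24 h (adjusted p = 0.0129) and 1.11 at 72 h, while 48 h was not called (0.81, adjusted p = 0.0512). In wild type the differences from 0 h were 0.93 at 24 h (adjusted p = 0.12), 0.60 at 48 h (adjusted p = 0.135) and 0.67 at 72 h (adjusted p = 0.0925). By group mean the order was mutant 72 h, mutant 24 h, wild type 24 h, mutant 48 h, wild type 72 h, wild type 48 h, wild type 0 h and mutant 0 h. Neighbours among the 6 oxygen groups overlapped in that order, and both 0 h groups lay below them without overlap. Without mutant 48 h replicate 1a the rise at 48 h in the mutant missed the threshold, while the rises at 24 h and 72 h kept their calls in all 24 alternatives.

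Cldn5, the main claudin of endothelial tight junctions, moved in the same direction by less. Probe set 104516_at (chromosome 16, 18776847 to 18778262) read 9525 units in the mutant at 0 h, 14298 and 14125 at 24 h, 13425 and 11300 at 48 h, and 16081 and 13901 at 72 h. Wild type read 9346 and 9594 units at 0 h, 12650 at 24 h, 13308 and 12740 at 48 h, and 11742 and 13215 at 72 h. All oxygen arrays lay above all 0 h arrays. The mutant arrays lay above those of wild type at 24 h and 72 h and overlapped them at 48 h, and mutant against wild type passed no test (0.26 at 72 h, adjusted p = 0.691). The mutant difference at 72 h passed the test (0.65 ± 0.19, adjusted p = 0.038), and that at 24 h did not (0.57, adjusted p = 0.0554). The 72 h call was lost in 8 of 24 alternatives, with an adjusted p of up to 0.207: on the arrays of the groups compared alone, and without mutant 24 h replicate 1a or 1b, mutant 72 h replicate 1a, or any wild type replicate of 0 h or 48 h. With wild type 0 h as its baseline, the mutant differed by 0.58 at 24 h (adjusted p = 0.0434) and 0.65 at 72 h, both called. In wild type the differences were 0.41, 0.46 and 0.39 at 24, 48 and 72 h, and the smallest adjusted p was 0.126.

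Endothelial marker genes are set beside Cdh5 and Cldn5 here. Of 18 endothelial marker genes, 16 were tested. In the mutant against its 0 h arrays, 9, 8 and 7 of them were higher at 24, 48 and 72 h and 0 lower, where 24.4%, 17.9% and 21.6% of all probe sets were called. In wild type 1, 2 and 3 were higher and 0 lower (1.72%, 6.68% and 7.86% of all). Against wild type at 0 h, the mutant had 5 higher and 0 lower at 24 h, 3 and 0 at 48 h, and 5 and 1 at 72 h (10.3%, 6.47% and 12.9% of all). The median difference of the 16 on that baseline was 0.40, 0.41 and -0.02 at 24, 48 and 72 h. The 11 markers on array type A summed to 29601 units in the mutant at 0 h, 59890 to 73036 at 24 h, 49195 to 57690 at 48 h and 48945 to 51767 at 72 h. In wild type they summed to 42897 to 46620 units at 0 h, 61617 at 24 h, 53287 to 56021 at 48 h and 43434 to 44004 at 72 h. On type A the wild type sum at 72 h lay in the range of 0 h, and on the other types it lay above it. The 3 markers on type B summed to 17739 to 18539 units in the mutant at 72 h and 10204 to 10915 at 0 h, and in wild type to 12948 to 13504 at 72 h and 10709 to 11306 at 0 h. The 2 on type C summed to 9363 to 10753 units in the mutant at 72 h and 3309 to 3578 at 0 h, and in wild type to 9809 to 10244 at 72 h and 3960 to 4097 at 0 h. The part of endothelial content in the values of Cdh5 and Cldn5 was not tested.

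**Figure D3:**
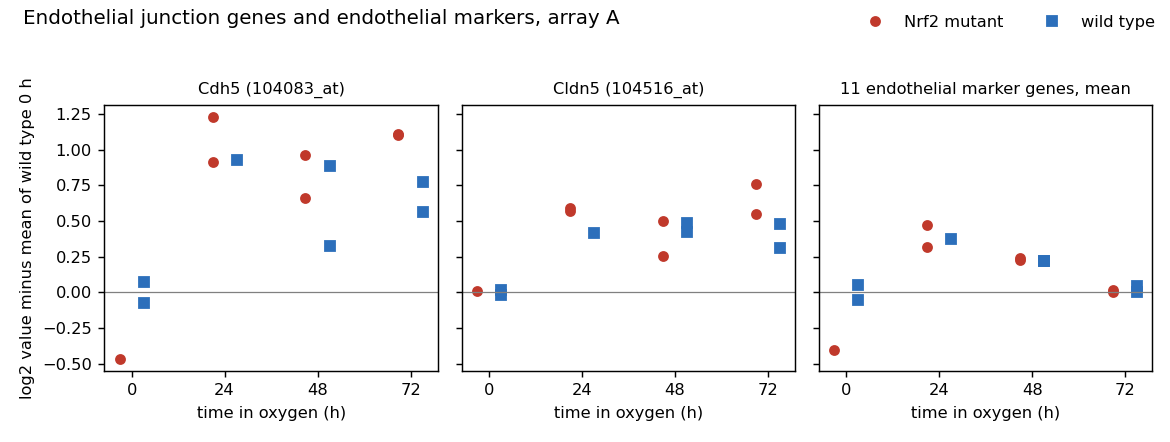
log2 value minus the wild type 0 h mean, on array type A, for Cdh5, Cldn5 and the mean of 11 endothelial marker genes; each point is an array, red circles Nrf2 mutant and blue squares wild type. The type A marker mean at 72 h lies at the wild type 0 h level in both genotypes and the Cdh5 and Cldn5 points lie above it, but the 5 markers on types B and C, not drawn, sum to more at 72 h than at 0 h in both genotypes.

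The epithelial cadherin gave no called difference in any of the 15 comparisons. Cdh1 encodes E-cadherin of epithelial adherens junctions (98140_at, chromosome 8, 106603350 to 106670247). On 7 mutant arrays it read 865 to 1370 units with a median of 1155, and on 7 arrays of wild type 816 to 1424 units with a median of 1291. At 72 h the arrays of a genotype spread widely, at 1273 and 865 units in the mutant and 1424 and 816 in wild type. The higher array was replicate 1a in both genotypes. The differences of 72 h from 0 h were 0.02 ± 0.32 in the mutant and -0.06 ± 0.26 in wild type. For all 8 groups, the range of Cdh1 overlapped that of at least 1 group of the other genotype.

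Cldn3 is a sealing claudin of alveolar and airway epithelium (chromosome 5, 134986214 to 134987476). On 162315_f_at it read 91 units in the mutant at 0 h, 144 and 150 at 24 h, 339 and 310 at 48 h, and 243 and 287 at 72 h. In wild type it read 139 and 145 units at 0 h, 198 at 24 h, 244 and 258 at 48 h, and 274 and 257 at 72 h. All arrays of 48 h and 72 h were above the filter value of 196, and all 0 h arrays were below it. The rise was 1.25 ± 0.18 at 48 h (adjusted p = 0.00132) and 1.02 ± 0.18 at 72 h (adjusted p = 0.00262) in the mutant. It was 0.58 ± 0.15 at 48 h (adjusted p = 0.0417) and 0.64 ± 0.15 at 72 h (adjusted p = 0.0247) in wild type. The probe set exceeded the filter on 9 of 14 arrays, all of them oxygen arrays, and was thus tested through the groups where it is high. These calls are not independent of the filter, and their sizes depend on the value added before the log2.

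The brighter Cldn3 probe set, 94493_at, moved in the same direction but was not called in wild type. It read 1379 units in the mutant at 0 h and 3121 to 3921 on the 6 mutant oxygen arrays, against 2574 and 2940 in wild type at 0 h and 3153 to 3675 on the 5 wild type oxygen arrays. The mutant rises of 1.26, 1.31 and 1.26 at 24, 48 and 72 h passed the test (adjusted p = 0.00195, 0.00243 and 0.00201), and the wild type differences of 0.30, 0.19 and 0.35 did not. The mutant calls rested on the single mutant 0 h array: against wild type at 0 h the differences were 0.31, 0.35 and 0.30 (adjusted p = 0.304, 0.279 and 0.315). On 162315_f_at the mutant against wild type 0 h was 0.03 at 24 h (adjusted p = 0.928) and was called at 48 h (0.87) and 72 h (0.63). In wild type the 48 h call of 162315_f_at was lost in 12 of 24 alternatives (adjusted p of up to 0.185) and the 72 h call in 6 of 24 (up to 0.124), in both cases without either replicate of the wild type groups compared, on their arrays alone and with eBayes trend. The 48 h call was lost further without either replicate of mutant 24 h, mutant 48 h or wild type 72 h.

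Cldn7, a claudin of bronchial and alveolar epithelium (chromosome 11, 69964779 to 69967886), had 3 probe sets with different patterns. The bright 129927_i_at on array type C read 9451 to 15053 units over 8 mutant arrays and 9869 to 16125 over 8 of wild type, and passed no test. The dimmer 129928_f_at on type C read 1923 to 3445 units in the mutant and 2029 to 3867 in wild type, also with no call. At 72 h against 0 h, it differed by 0.70 in the mutant (adjusted p = 0.0694) and 0.51 in wild type (adjusted p = 0.271). On 99561_f_at of type A the mutant read 644 units at 0 h and 1030 to 1615 on the oxygen arrays, and wild type read 989 and 1224 at 0 h and 1127 to 1382 in oxygen. Its mutant rises from 0 h were 0.85 at 24 h (adjusted p = 0.016), 1.09 at 48 h (adjusted p = 0.00679) and 0.73 at 72 h (adjusted p = 0.0336). They were lost against wild type at 0 h, at 0.15, 0.38 and 0.03 (adjusted p = 0.669, 0.246 and 0.953). The call at 24 h was lost also without mutant 24 h replicate 1a or 1b and on the compared arrays alone. That at 72 h was lost without mutant 72 h replicate 1b, on the compared arrays alone and with quantile normalization.

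Cldn18, the claudin typical of alveolar epithelium (105097_at on array type B, chromosome 9, 99690796 to 99717267), was highest on the wild type 0 h arrays. The mutant read 3849 and 6062 units at 0 h, 3269 and 4072 at 24 h, 4042 and 5061 at 48 h, and 3435 and 4255 at 72 h. Wild type read 6764 and 6412 units at 0 h, 4274 and 3239 at 24 h, 3276 and 4878 at 48 h, and 2663 and 4966 at 72 h. Both wild type 0 h arrays lay above every other array, but the wild type differences of -0.80, -0.70 and -0.83 at 24, 48 and 72 h did not pass the test (adjusted p = 0.234, 0.216 and 0.13). In the mutant the differences were -0.39, -0.09 and -0.33, with an adjusted p of at least 0.388. The 3 type B markers of alveolar type 1 cells, which carry Cldn18, summed to 22269 to 22442 units in the mutant at 72 h and 23579 to 26189 at 0 h, and in wild type to 24746 to 26363 units at 72 h and 31870 to 33971 at 0 h. At 24 h they summed to 28412 to 36771 units in the mutant and 34695 to 35639 in wild type, above 0 h in both genotypes. The 5 on type A summed to 50133 units in the mutant at 0 h. At 24 h and 72 h they summed to 42322 to 47342 and 30446 to 31435. In wild type they summed to 48718 to 52202 units at 0 h, 56528 at 24 h and 38880 to 39141 at 72 h. The 2 on type C overlapped their 0 h range at 24 h in both genotypes. At 72 h those 2 lay within it in the mutant and below it in wild type. Of 10 tested, 3, 3 and 1 were called higher and 2, 0 and 3 lower at 24, 48 and 72 h in the mutant, and 0 higher and 0, 2 and 1 lower in wild type, where 24.4%, 17.9% and 21.6% of all probe sets were called in the mutant and 1.72%, 6.68% and 7.86% in wild type. Against wild type at 0 h, 0 of these 10 were higher in the mutant and 2 lower at 24 h. The counts were 0 and 0 at 48 h and 1 and 6 at 72 h (10.3%, 6.47% and 12.9% of all). The 3 alveolar type 2 markers on type B summed to 27100 to 29870 units in wild type at 0 h. At 24 h and 72 h they summed to 41454 to 43313 and 24506 to 25763. In the mutant these sums were 26470 to 27212, 40061 to 44941 and 18992 to 20719 units. The part of either cell type in the Cldn18 values was not tested.

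Ocln encodes occludin, a membrane protein of tight junction strands (chromosome 13, 100496504 to 100552718, minus strand). It was the member called lower at 72 h against 0 h in each genotype, on probe set 104786_at alone. Its promoter is shown, with that of Gja1 further on, because Ocln was called lower and Gja1 higher in wild type lungs at 72 h, where Cldn3 162315_f_at was also called higher. The window is the 250 bases before the outermost start in RefSeq, on GRCm38.p6, at chr13:100552719-100552968 on the minus strand, 5′ to 3′. It holds none of the motifs searched, so no letter is in capitals.
Ocln promoter: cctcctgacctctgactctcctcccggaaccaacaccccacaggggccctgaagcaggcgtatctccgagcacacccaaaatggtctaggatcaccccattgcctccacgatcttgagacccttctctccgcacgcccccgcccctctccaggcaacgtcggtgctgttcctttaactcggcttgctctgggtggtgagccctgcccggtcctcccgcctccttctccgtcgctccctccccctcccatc

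On 104786_at of array type B, Ocln read 898 and 923 units in the mutant at 0 h, 954 and 703 at 24 h, 893 and 800 at 48 h, and 402 and 383 at 72 h. Wild type read 877 and 1004 units at 0 h, 1057 and 959 at 24 h, 875 and 862 at 48 h, and 551 and 502 at 72 h. The 4 arrays at 72 h were the lowest of all 16, and at 72 h the mutant arrays lay below the wild type arrays. Against 0 h, the probe set fell by 0.998 ± 0.17 at 72 h in the mutant (adjusted p = 0.00114) and by 0.71 ± 0.17 in wild type (adjusted p = 0.0213). The mutant at 72 h differed from wild type at 0 h by -1.04. The mutant at 72 h was also lower than at 48 h (-0.91 ± 0.17, adjusted p = 0.0151), and 1 of 15 junction probe sets passed that test, where 2.05% of all did. Wild type at 72 h against 48 h gave -0.61 (adjusted p = 0.139), with 0 of 15 passing in limma (2 at an unadjusted p under 0.05) and 0.597% of all. The mutant fall from 0 h kept its call in all 25 alternatives. The wild type fall was lost in 5 of 25 (adjusted p of up to 0.139), on the arrays of the groups compared alone and without any replicate of the wild type 0 h or 72 h group. The fall from 48 h was likewise lost in 5 of 25 (up to 0.157), without any replicate of the mutant 48 h or 72 h group or on their arrays alone.

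A second Ocln probe set on type B, 112074_at, was dim in the mutant. It read 206 and 273 units in the mutant at 0 h, 180 and 222 at 24 h, 229 and 237 at 48 h, and 176 and 39.5 at 72 h. Wild type read 478 and 471 units at 0 h, 602 and 539 at 24 h, 490 and 420 at 48 h, and 467 and 362 at 72 h. All 8 mutant arrays lay below all 8 wild type arrays. The filter value of 273 was exceeded on 9 of 16 arrays, all 8 of wild type and 1 of the mutant, so the probe set was tested through the group where it is high. Its calls are therefore not independent of the filter, and the size depends on the value added before the log2. Over the mean of 24, 48 and 72 h the mutant was lower by 1.02 on the log2 scale (-1.02 ± 0.14, adjusted p = 0.00252), a call kept in all 24 alternatives in which the probe set was tested. At 72 h alone the difference was -1.27 ± 0.24 (adjusted p = 0.0294). That call was lost in 7 of 24 alternatives (adjusted p of up to 0.323), among them the removal of mutant 72 h replicate 1b, which read 39.5 units, and of any wild type replicate of 0 h or 72 h. At 0, 24 and 48 h the differences of -0.72, -1.09 and -0.69 did not pass (adjusted p = 0.136, 0.109 and 0.351).

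The other Ocln probe sets did not share this genotype difference. Over the mean of 24, 48 and 72 h, 104786_at differed by -0.21 (adjusted p = 0.452) and 92907_at of type A by 0.12 (adjusted p = 0.927). On 92907_at, Ocln read 234 to 377 units in the mutant (n = 7) and 206 to 1044 in wild type (n = 7). Its highest value, 1044, was wild type 0 h replicate 1b, and the other 6 wild type arrays read 206 to 343. The drop at 72 h was not called on 112074_at (-0.70, adjusted p = 0.0542 in the mutant and -0.16 in wild type) or on 92907_at (0.08 in the mutant and -0.86, adjusted p = 0.246, in wild type). Which transcript regions the 3 probe sets read was not analysed here.

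**Figure D4:**
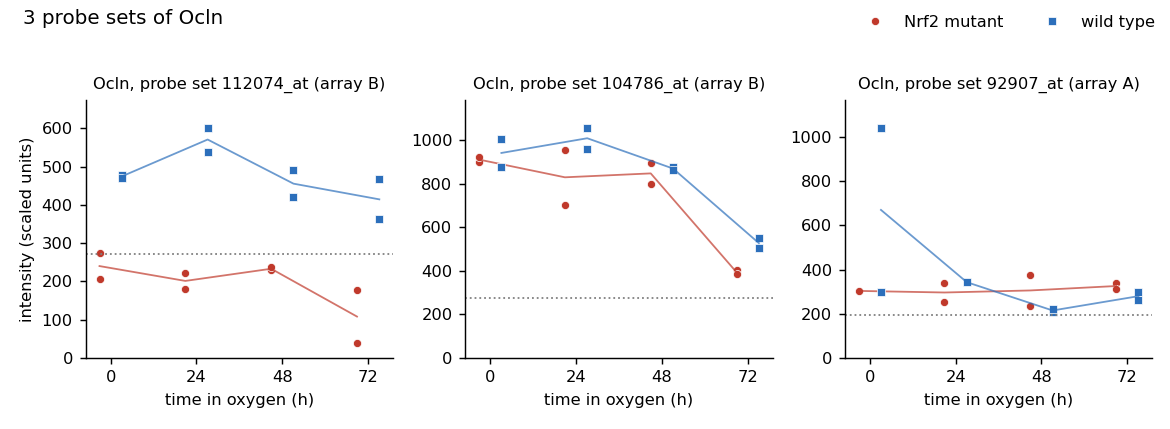
Deposited intensity (linear, from 0) of the 3 Ocln probe sets against time in oxygen; points are single arrays, lines join group means and the dotted line is the filter value of the array type. On 112074_at mutant arrays (39.5 to 273 units) lie below wild type arrays (362 to 602 units) at every time, on 104786_at both genotypes drop at 72 h, and on 92907_at neither pattern is seen.

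Tjp1 encodes ZO-1, the scaffold that joins tight junction strands to actin (chromosome 7, 65296165 to 65527850). Probe set 99935_at read 2983 units in the mutant at 0 h, 5688 and 5668 at 24 h, 5054 and 4340 at 48 h, and 3849 and 3593 at 72 h. Wild type read 2752 and 2837 units at 0 h, 3820 at 24 h, 4492 and 6254 at 48 h, and 4044 and 4331 at 72 h. The highest group mean was at 24 h in the mutant and at 48 h in wild type, and all oxygen arrays lay above all 0 h arrays. The test was passed at 24 h in the mutant (0.91 ± 0.22, adjusted p = 0.0136) and at 48 h in wild type (0.91 ± 0.18, adjusted p = 0.0161). At 72 h the differences were 0.31 in the mutant (adjusted p = 0.369) and 0.57 in wild type (adjusted p = 0.0874). Against wild type at 0 h, the mutant was higher by 1.003 ± 0.18 at 24 h (adjusted p = 0.00797) and 0.73 at 48 h (adjusted p = 0.0393). The mutant call at 24 h was lost without mutant 24 h replicate 1a and on the arrays of the groups compared alone (adjusted p of up to 0.0502). The wild type call at 48 h was lost without either wild type 0 h replicate, without wild type 48 h replicate 1b and on the compared arrays alone (up to 0.117).

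Gja1 encodes connexin 43, a gap junction channel of alveolar epithelium, endothelium and muscle (chromosome 10, 56377300 to 56390419, plus strand). Among the promoters of these genes that were searched, its own alone holds the AP-1 motif TGANTCA, shown in capitals. The window is the 250 bases before the start in RefSeq, on GRCm38.p6, at chr10:56377050-56377299 on the plus strand, 5′ to 3′.
Gja1 promoter: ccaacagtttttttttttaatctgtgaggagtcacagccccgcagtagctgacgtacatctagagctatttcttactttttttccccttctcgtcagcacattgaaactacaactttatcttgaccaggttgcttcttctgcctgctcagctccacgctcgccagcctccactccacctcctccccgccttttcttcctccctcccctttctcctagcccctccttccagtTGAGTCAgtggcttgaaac

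On 100064_f_at, Gja1 read 4627 units in the mutant at 0 h, 4941 and 4800 at 24 h, 6797 and 6323 at 48 h, and 5992 and 7039 at 72 h. In wild type it read 3183 and 3426 units at 0 h, 4250 at 24 h, 5768 and 5192 at 48 h, and 5788 and 5973 at 72 h. Every 48 h and 72 h array lay above every 0 h and 24 h array, and at each time the mutant arrays lay above the wild type arrays. The wild type rise passed the test at 48 h (0.72 ± 0.15, adjusted p = 0.0218) and 72 h (0.82 ± 0.15, adjusted p = 0.00978). In the mutant the differences were 0.07 at 24 h, 0.50 at 48 h (adjusted p = 0.0958) and 0.48 at 72 h (adjusted p = 0.0952). From wild type at 0 h the mutant differed by 0.55 at 24 h (adjusted p = 0.0466), 0.97 at 48 h (adjusted p = 0.00505) and 0.96 at 72 h (adjusted p = 0.00269). Mutant against wild type gave 0.48, 0.19, 0.26 and 0.14 at 0, 24, 48 and 72 h, and none was called (adjusted p of at least 0.22). The wild type call at 48 h was lost without any replicate of the 2 groups compared and on their arrays alone (adjusted p of up to 0.147). That at 72 h was lost on the compared arrays alone and when 0 h replicate 1a or 72 h replicate 1b of wild type was removed (up to 0.0735). The dim 100065_r_at read 214 to 936 units in the mutant, against 127 to 702 in wild type, and passed no test. In wild type it read 311 and 450 units at 0 h and 127 and 205 at 48 h. This fall is opposite to the called rise of 100064_f_at. At 72 h it read 356 and 702 units in wild type. The mutant read 620 units at 0 h and 244 and 214 at 24 h, then 285 to 936 over 48 h and 72 h.

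The antioxidant response element that Nrf2 binds was searched on both strands as its core TGACNNNGC, beside the E-box CAGGTG bound by Snail and Zeb repressors of junction genes, and the AP-1 motif. RefSeq promoters were matched for 7 of the 9 genes, in 10 windows of 250 bases. Cdh1 and Cdh5 were not in the table. The response element core stood in 0 of the 10 windows and in 10.2% of all 32851 promoters. The E-box stood in 2 windows, at inner starts of Ocln and Cldn7, and in 17.2% of all promoters. AP-1 stood in 1, Gja1, at 19 bases before the start, and in 6.75% of all promoters. No window held more than 1 kind of motif.

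Whether the genotypes differed was tested at each time, as the mean over 24, 48 and 72 h, and as a difference in response. At 0 h 1 of 15 junction probe sets passed, where 2.75% of all did: Cldn3 94493_at was lower in the mutant (-0.96 ± 0.21, adjusted p = 0.0417), with 1379 units on 1 mutant array and 2574 and 2940 units in wild type. That call rested on the mutant 0 h array that stood apart, and was lost in 11 of 23 alternatives (adjusted p of up to 0.146), among them the removal of either replicate of wild type 0 h, 48 h or 72 h or of mutant 24 h. At 24 h 0 of 15 passed (0.157% of all) and at 48 h 0 of 15 (0.377% of all), with 2 at an unadjusted p under 0.05 in limma at each time. At 72 h 1 passed (0.82% of all), and in the mean over the oxygen times 1 passed (1.25% of all), in both cases Ocln 112074_at, lower in the mutant and tested through its wild type arrays. The median difference of the 15 in that mean was 0.04, and -0.01 over all probe sets.

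No junction probe set passed a test of a genotype difference in the response to oxygen. For 72 h against 0 h, 0 of 15 passed, where 1.37% of all did, and for 72 h against 48 h, 0 of 15 passed, where 0.0336% of all did. At an unadjusted p under 0.05 in limma the counts were 2 and 0. The larger fitted rise of Cdh5 in the mutant, by 0.90 ± 0.34 over the wild type rise at 72 h, had an adjusted p of 0.252. For Cldn3 94493_at that difference was also 0.90 (adjusted p = 0.144), and for Ocln 104786_at it was -0.29 (adjusted p = 0.639). A call in 1 genotype and not in the other is therefore not shown to differ between them.

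With wild type at 0 h as the baseline for the mutant, 4 junction probe sets were higher and 1 lower at 24 h, where 10.3% of all passed. At 48 h 3 were higher and 0 lower (6.47% of all), and at 72 h 4 were higher and 2 lower (12.9% of all). The calls at 72 h were Cldn3 162315_f_at, Cldn5, Cdh5 and Gja1, which were higher, and Ocln 104786_at and 112074_at, which were lower. These counts include Cldn3 162315_f_at, called at 48 h and 72 h, and Ocln 112074_at, called at 24 h and 72 h. Both were tested through the groups where they are high, and so give the counts no support. All differences on this baseline are measured across genotypes, so they hold any difference between the genotypes at 0 h beside that of oxygen. For Ocln 112074_at (-1.42, adjusted p = 0.00224), the mutant at 0 h differed from wild type by -0.72 (adjusted p = 0.136). Gja1 100064_f_at read 4627 units in the mutant at 0 h, above 3183 and 3426 in wild type. It was not called in the mutant against its own 0 h array at any time.

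The likeness of other genes to the members was measured by Pearson's r of log2 values over the arrays of a type without the mutant 0 h arrays, 13 of type A and 14 of types B and C. The points share the 8 groups, so these are descriptions. Cdh5 was most like Myadm (r = 0.925), Gatad2a (r = 0.904) and Rela (r = 0.895), a subunit of NF-kappaB. Gja1 was most like Dyrk1a (r = 0.973), Socs3 (r = 0.954), a feedback inhibitor of cytokine signalling, and Ccl7 (r = 0.948), a monocyte chemokine. Ocln 104786_at was most like Ednrb (r = 0.964), the endothelin B receptor, Fam162b (r = 0.954) and Cped1 (r = 0.948). For the remaining members the most alike were Tesk1 for Cldn3 (r = 0.959), Cpt1a for Cldn5 (r = 0.947), Rab3c for Cldn7 (r = 0.886), Alkbh7 for Cldn18 (r = 0.904), Ylpm1 for Tjp1 (r = 0.939) and Mettl7a1 for Cdh1 (r = 0.952). Among the members on array type A, Cldn5 and Cdh5 had r = 0.819, Cldn3 162315_f_at and Gja1 100064_f_at r = 0.856, and Cdh1 and Gja1 100065_r_at r = -0.84, each over 13 arrays.

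The other genes of junctions were taken from lists of 40 tight junction, 18 adherens junction, 13 desmosome and 15 gap junction genes and 22 junction regulators, each gene by its brightest tested probe set. Beside the counts that follow, the share of all probe sets called at 24, 48 and 72 h was 24.4%, 17.9% and 21.6% in the mutant, 1.72%, 6.68% and 7.86% in wild type, and 10.3%, 6.47% and 12.9% in the mutant against wild type at 0 h. Of 17 adherens junction genes tested, 7 were higher and 0 lower at 24 h in the mutant, 6 and 0 at 48 h, and 6 and 1 at 72 h. In wild type 3, 3 and 2 were higher and 0 lower. Against wild type at 0 h, the mutant had 5, 3 and 3 higher at 24, 48 and 72 h, and 1 lower at 72 h.

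Ctnna1, alpha-catenin, which links cadherins to actin, rose in both genotypes at all 3 times. It read 1157 units in the mutant at 0 h, 4898 and 5297 at 24 h, 6014 and 5026 at 48 h, and 4937 and 5880 at 72 h. Wild type read 2121 and 2100 units at 0 h, 4263 at 24 h, 4505 and 4341 at 48 h, and 4448 and 5515 at 72 h. No oxygen array overlapped a 0 h array. The rise at 72 h was 2.15 ± 0.21 in the mutant (adjusted p = 0.000102), 1.32 ± 0.17 in the mutant against wild type at 0 h, and 1.20 ± 0.17 in wild type (adjusted p = 0.00253). Vcl, vinculin, which strengthens that link under tension, rose by 1.47 ± 0.19 in the mutant (1.59 against wild type at 0 h) and 1.37 ± 0.15 in wild type at 72 h, and its calls also covered 24 h and 48 h in both genotypes. It read 2688 units in the mutant at 0 h and 6025 to 7955 in oxygen, against 2557 and 2368 at 0 h and 5042 to 6820 in oxygen in wild type. Ptprb, the vascular phosphatase that acts on VE-cadherin, rose at 24 h in the mutant (0.96 ± 0.15, and 0.92 against wild type at 0 h) and wild type (0.80 ± 0.15). Ptprb was also called higher at 48 h in the mutant (0.66) and wild type (0.80), and at 72 h in the mutant (0.47). The mutant read 15173 and 15422 units at 48 h and 14136 and 12631 at 72 h, against 10070 and 9710 in wild type at 0 h. Jup, plakoglobin, rose in the mutant at 24, 48 and 72 h, by 2.16, 1.78 and 1.51 from its 1 array at 0 h, which read 853 units. Against wild type at 0 h, Jup was called in the mutant at 24 h (1.48, adjusted p = 0.0238) and not at 48 h (1.10, adjusted p = 0.0915) or 72 h (0.83, adjusted p = 0.155). In wild type Jup differed by 1.52 at 24 h (adjusted p = 0.113), 0.77 at 48 h and 0.05 at 72 h.

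Of 26 tested tight junction genes, 9 were higher and 1 lower at 24 h in the mutant, 5 and 1 at 48 h, and 6 and 1 at 72 h. In wild type 1 was higher and 0 lower at 24 h, 1 and 1 at 48 h, and 3 and 1 at 72 h. Against wild type at 0 h the mutant had 5 and 1, 1 and 1, and 3 and 1. Cldn4, a claudin of injured alveolar epithelium, read 557 and 956 units in the mutant at 72 h, against 1364 and 1088 in wild type at 72 h, and 194 to 412 on the other arrays. Its rise at 72 h from 0 h was 1.44 ± 0.32 in the mutant (adjusted p = 0.01) and 1.58 ± 0.26 in wild type (adjusted p = 0.00562), and in wild type 72 h was 1.82 above 48 h (adjusted p = 0.0154). Set against wild type at 0 h, Cldn4 in the mutant at 72 h was higher by 0.90 (adjusted p = 0.0496). Cldn10, a claudin of club cells, fell at 48 h and 72 h in wild type, by 1.43 and 1.49, and at 48 h in the mutant, by 0.97. Relative to wild type at 0 h the mutant was lower at 24, 48 and 72 h (-1.27, -1.58 and -1.39). It read 862 to 1151 units on the mutant arrays of 48 h and 72 h and 927 to 1051 on those of wild type, against 1479 and 2462 in the mutant and 2187 and 4054 in wild type at 0 h. Esam, an adhesion molecule of endothelial tight junctions and 1 of the endothelial markers, rose at 72 h by 1.43 ± 0.19 in the mutant (1.13 against wild type at 0 h) and 0.67 ± 0.19 in wild type.

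The desmosome, gap junction and regulator lists had fewer calls. Of 9 tested desmosome genes, 0 were higher and 2, 2 and 1 lower at 24, 48 and 72 h in the mutant, and in wild type 1 was higher, Ppl at 72 h (0.66 ± 0.15). Against wild type at 0 h, the mutant desmosome counts were 1, 0 and 1 higher, each Ppl, and 0, 0 and 1 lower. Pkp1, a plakophilin of squamous epithelium, fell by 2.25 at 72 h in the mutant, relative to the 0 h array on which squamous markers summed to 21265 units, and by 1.17 relative to wild type at 0 h (adjusted p = 0.044). At 24 h and 48 h its calls were lost on that baseline (-0.25 and -0.45). Of 7 tested gap junction genes, 0 were called in the mutant in limma against its own 0 h and 1, Gja4, a connexin of arterial endothelium, was lower in wild type at 72 h (-0.90 ± 0.24, adjusted p = 0.0481) and in the mutant at 72 h against wild type at 0 h (-1.12, adjusted p = 0.0128). Of 19 tested regulators, 4, 2 and 4 were higher and 2, 1 and 1 lower at 24, 48 and 72 h in the mutant, and 0, 1 and 0 were higher and 0, 1 and 0 lower in wild type. On the wild type 0 h baseline the mutant counts were 0, 1 and 1 higher and 0, 0 and 1 lower.

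Sox17, a transcription factor of arterial endothelium, was the 1 of 19 tested regulators called between genotypes at 72 h (0.85 ± 0.16, adjusted p = 0.0385). In that comparison 0.82% of all probe sets were called. Sox17 read 3705 and 3288 units in the mutant and 1968 and 1845 in wild type. From 0 h it rose by 1.53 at 48 h and 1.43 at 72 h in the mutant (1.23 and 1.14 against wild type at 0 h) and by 0.78 at 48 h in wild type. Snai1, a repressor of cadherin and claudin genes, rose by 1.53 at 48 h and 1.78 at 72 h in the mutant, with 542 to 852 units at those times against 168 on its 0 h array, while wild type read 298 to 610 units over all times with no call. Both Snai1 calls were lost against wild type at 0 h, at 0.49 (adjusted p = 0.358) and 0.74 (adjusted p = 0.119). Rap1a, a small GTPase of endothelial junctions, gave the 1 called genotype difference in response among these lists (-1.89 ± 0.39, adjusted p = 0.0477), which rests on the mutant 0 h array.

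**Figure D5:**
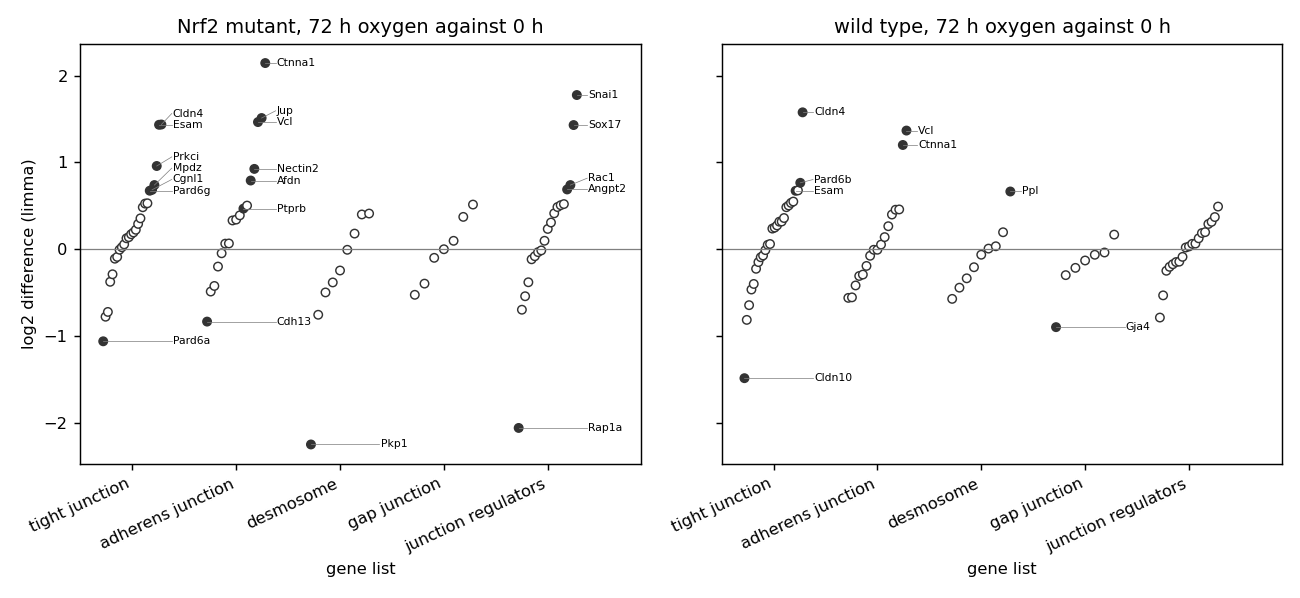
log2 difference (limma) of 72 h oxygen against 0 h for every tested gene of 5 junction lists, in the Nrf2 mutant (left) and wild type (right), sorted within each list; filled points passed the test and are named. Ctnna1, Vcl, Cldn4 and Esam are filled in both panels. In the mutant panel, genes on type A rest on 1 array at 0 h and those on types B and C on 2.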

How the data were processed

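RNA of mouse lung from 2 genotypes and 4 times was measured on 46 arrays. The authors deposited a linear intensity for every probe set of each array, and equal trimmed means show that arrays had been scaled. For their software and build, nothing is given in the sources used here. The number of arrays limits the precision.

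Probe sets were named through the platform annotation and gene positions through RefSeq for GRCm38.p6. To every intensity a constant was added (78.5, 126 and 106 units for A, B and C, the 25th percentile of the type) and log2 taken, and probe sets above the 40th percentile (196, 273 and 210) on at least 2 arrays were tested: 8502, 8948 and 9371. R 4.3.3 with limma 3.58.1 fitted 1 mean per group within each type, which lends a lone array the spread of the other groups. Two-sided p-values were adjusted by Benjamini-Hochberg over the 3 types together. The script was tested on simulated data.

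The members, lists and comparisons were chosen with earlier results of these data known. Named genes are the members, Nfe2l2, at most 5 called genes per junction list and comparison by smallest p, and the 3 most alike genes per member. The alternatives are a floor or a smaller added value, quantile normalization, other filters, the compared arrays alone, a replicate block, eBayes with trend, wild type 0 h as the baseline and leaving out each replicate.

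The replicate numbers 1a and 1b were checked for pairing: deviations of same-numbered samples from their group means correlated at -0.0986 to 0.37 between groups. Over 0.1 were 7 of 15 pairs of groups on type A, 18 of 28 on type B and 2 of 28 on type C. As not all were over 0.1, the numbers were not used to pair samples. The check does not show that same-numbered arrays share nothing, and a replicate block is among the alternatives.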

Additional observations from a re-analysis of the deposited data

How the results depend on the processing

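Of 5470 values of single junction probe sets under alternatives, 5357 kept direction and side of the threshold, 83 lost a call, 30 gained one and 0 reversed. The number of junction probe sets called moved by more than 1.5 times in these cases. When a fit held just the compared groups' arrays, it was 3 of 15 in the mutant at 72 h against 0 h (6 in all arrays), and 0 in wild type at 48 h and 72 h against 0 h (3 each), in the mutant at 72 h against 48 h (1), and in mutant against wild type at 0 h (1) and 72 h (1); fewer samples then estimate the spread. With an added value of 16, mutant against wild type gave 0 at 0 h and 0 at 72 h. With a floor in place of the added value it gave 1 at 24 h, Ocln 112074_at, where the main count was 0. With the filter at the 60th percentile, under which Ocln 112074_at was not tested, it gave 0 at 72 h and 0 in the mean of 24, 48 and 72 h.

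Leaving out each replicate gave 0 to 3 calls in wild type at 48 h (0 without wild type 0 h replicate 1b or 48 h replicate 1b) and 0 to 3 at 72 h (0 without wild type 72 h replicate 1b). In the mutant it gave 0 to 4 at 24 h, 0 to 4 at 48 h and 1 to 6 at 72 h, each lowest without mutant 0 h replicate 1b, which leaves array type A with no mutant 0 h array. It gave 0 to 1 in the mutant at 72 h against 48 h and in mutant against wild type at 0, 24 and 72 h, 1 in the mean over the oxygen times, and 0 in the remaining comparisons. A replicate block gave the same number of junction calls in all 15 comparisons, such as 6 in the mutant and 3 in wild type at 72 h. Leaving all mutant 0 h arrays out, an alternative added after seeing the data, kept the count in all 10 comparisons that do not use them. Dim probe sets (Ocln 112074_at in the mutant, Cldn3 162315_f_at at 0 h) give no dependable size.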

Other observations

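The untested second Tjp1 probe set, 162298_r_at, was lower on the 1a array than on the 1b array in each of the groups that had both on type A. In the mutant it read 10.8 and 28.7 units at 24 h, 7.68 and 21.6 at 48 h, and 2.49 and 18.6 at 72 h. In wild type it read 13.9 and 31.4 units at 0 h, 8.93 and 21.3 at 48 h, and 8.63 and 25.5 at 72 h. All of these lie far under the filter value of 196, so they carry no level of Tjp1.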
